A study of Homo sapiens with 4 samples.

Results

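DNA damage signalling and repair genes were followed in Huh-7 cells, a line derived from a human liver cancer (hepatocellular carcinoma), after treatment with the cytokine transforming growth factor beta (TGF-beta). The set holds 52 genes, chosen by name for their roles in sensing and mending DNA lesions, and 50 of them were measured among 12165 genes on the arrays. BRCA2 and FANCA were not analysed here. The comparison was of 2 arrays from cells that had 48 h of TGF-beta with 2 arrays from untreated cells. Per the labels, cells of both groups grew in Dulbecco's modified Eagle medium containing 10% fetal bovine serum that had been heat-inactivated, and their RNA came from confluent dishes. How much TGF-beta was used is not stated in the labels. Nothing in them says that replicate arrays represent separate dishes, so the p-values reflect array-to-array spread that could be technical. Huh-7 is a single tumour line, and it carries a mutated p53, the transcription factor that damage signalling normally activates.

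Cells detect double-strand breaks with the MRE11-RAD50-NBN complex and the kinase ATM, and stretches of single-stranded DNA with the kinase ATR. These kinases pass the signal to CHEK1 and CHEK2, which hold the cell cycle, while separate pathways repair each kind of lesion. Breaks are joined end to end or copied from the sister chromatid by homologous recombination, bulky adducts are cut out by nucleotide excision repair, damaged bases by base excision repair, mispaired bases by mismatch repair, and cross-links are unhooked by the Fanconi anaemia proteins. Many of these genes are also transcribed more in dividing than in resting cells.

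Values are linear probe set intensities, and log2 fold changes are TGF-beta over untreated from the brightest probe set of each gene. Intensities were comparable between arrays, with array medians of 50.1 to 51.0. Of all 12165 genes, 149 were called changed by limma at an adjusted p under 0.05, or 1.22%. That count was 0 without TGF-beta array 1 and 0 without TGF-beta array 2 (1326 and 1563 genes at an unadjusted p under 0.05), 345 without untreated array 1 and 523 without untreated array 2. All 9 measured hepatocyte markers were bright, with means over the 4 arrays of at least 10.47 on the log2 scale, and ALB had means of 15.12 in TGF-beta cells and 15.05 in untreated cells. Of these markers APOA1 rose, by 0.74 ± 0.11 (SE) on the log2 scale (adjusted p = 0.0378), and TTR had a log2 fold change of -0.63 ± 0.11 and was called lower (adjusted p = 0.0470). Of 9 leukocyte markers, 7 were below the median brightness of all genes, among them PTPRC at 4.91 in TGF-beta cells and 4.90 in untreated cells. CD14 rose 2.005-fold (adjusted p = 0.0167), and CD3D was at -0.61 ± 0.16 (adjusted p = 0.109). Of 9 fibroblast markers, 7 were likewise dim, PDGFRA rose by 0.76 ± 0.12 (adjusted p = 0.0394), and LUM was bright in both groups (12.78 in TGF-beta cells and 12.76 in untreated cells). The dim COL1A1 and DCN were at -0.44 ± 0.11 and -0.53 ± 0.15, not called. All 7 endothelial markers had means of at most 5.49, and 0 were called by limma (1 at an unadjusted p under 0.05). The part of other cell types in the results below was not tested. Among 7 measured genes known to respond to TGF-beta in many cells, 0 were called by limma (1 higher at an unadjusted p under 0.05). Their median log2 fold change was 0.12, within a range of -0.23 to 0.40, and SMAD7 was at -0.03 ± 0.13 (SE). Of the 7, 5 had positive values, or 71.4%, against 48.6% of all genes.

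None of the 50 measured repair and signalling genes was called changed after TGF-beta, 0 higher and 0 lower, against 1.22% of all genes (0.658% higher and 0.567% lower). With an unadjusted p under 0.05 as the limit, limma placed 3 members higher and 6 members lower, 18.0% of them. Of all genes 18.0% passed the same limit, 9.35% higher and 8.60% lower. Of genes at or above the median brightness 28.3% passed it, and of the 39 members among them 20.5% did, 2 higher and 6 lower. The 6 lower values were those of PARP2, DDB2, RECQL, RAD50, MRE11 and CHEK2, with log2 fold changes of -0.39 to -0.27. The 3 higher values were those of OGG1, XRCC1 and FANCG, between 0.36 and 0.48. All 50 intervals of 95% confidence lay between -0.68 and 0.93 on the log2 scale, so a change of 1 log2 unit or more lay outside each of them. With 2 arrays per group, smaller changes can miss the threshold.

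**Figure D1:**
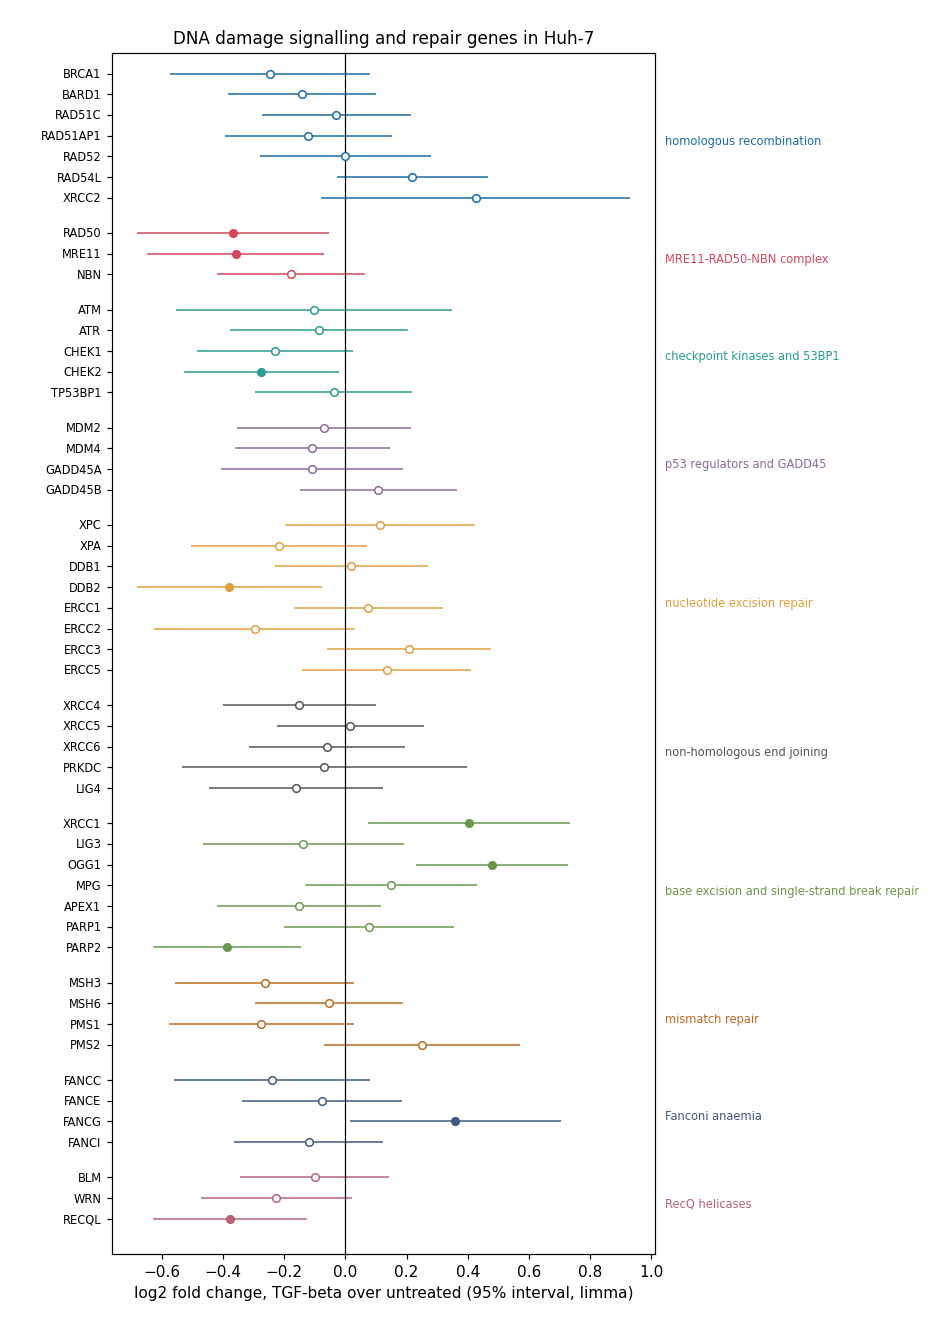
Log2 fold change of each of the 50 measured members, TGF-beta over untreated, with the 95% interval from limma, grouped by role (2 arrays per group). Filled points mark the 9 members at an unadjusted p under 0.05. None was called after adjustment, and 35 of the 50 points lie left of 0.

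Small negative values were more frequent than small positive ones. In 35 of the 50 members (28 without untreated array 2) the log2 fold change was below 0, against 51.4% of all genes, and the median of the members was -0.10, against -0.01 for all genes. The arrays of the groups did not overlap in 33 members, or 66.0%, against 49.1% of all genes. Both TGF-beta arrays lay below both untreated arrays in 22 members, or 44.0%, against 25.9% of all genes, and above them in 11, against 23.3%. Members were brighter than the average gene, with 39 of 50 at or above the median brightness of all genes, where groups separate more often. Among those 6083 genes 60.3% had non-overlapping groups, 31.1% lay lower in TGF-beta cells and the median was -0.002. The 39 members among them had 27 negative values, 19 of them with TGF-beta arrays below both untreated arrays, and a median of -0.10. These shares are descriptions of a set chosen with earlier results of these data known, and genes are not independent replicates.

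**Figure D2:**
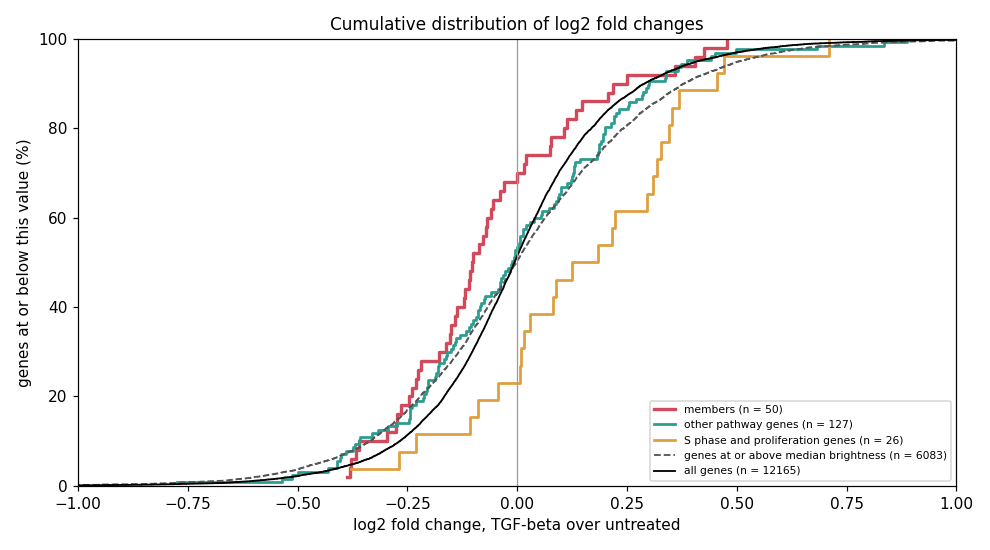
Cumulative distribution of log2 fold changes (TGF-beta over untreated) for the 50 members, 127 other genes of the same pathways, 26 S phase and proliferation genes, the 6083 genes at or above the median brightness and all 12165 genes. The curve of the members crosses 0 at 70.0% and that of all genes at 51.4%, while the S phase curve lies to the right over most of its range.

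Of the break sensors, all 3 subunits of the MRE11-RAD50-NBN complex had lower values in TGF-beta cells with no overlap between groups, and 0 were called by limma (2 at an unadjusted p under 0.05). Such separation towards lower values occurred in 25.9% of all genes, and in 31.1% of those at or above the median brightness, where these 3 lie. MRE11, the nuclease of the complex, had intensities of 529 and 560.4 in TGF-beta cells, against 762 and 640.3 in untreated cells. Its log2 fold change was -0.36 ± 0.12 (SE), with an adjusted p of 0.191. The other probe set of MRE11, dim at a mean log2 intensity of 5.00, gave 0.12. RAD50, the ATPase that tethers broken ends, had intensities of 189.9 and 171 in TGF-beta cells, against 209.7 and 258 in untreated cells. Its log2 fold change was -0.37 ± 0.13 (adjusted p = 0.215), and dimmer probe sets of the same gene gave -0.45, 0.11 and -0.03. For NBN, which brings ATM to the complex, the log2 fold change was -0.18 ± 0.10, and all 4 of its probe sets had negative values (-0.29 to -0.08).

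The signalling kinases and the adaptor 53BP1 likewise had 5 negative values among 5 genes and 0 calls in limma (1 gene at an unadjusted p under 0.05). CHEK2, the kinase downstream of ATM, had intensities of 510.2 and 497 in TGF-beta cells, against 638 and 582 in untreated cells. The groups did not overlap, and the log2 fold change was -0.27 ± 0.11 (adjusted p = 0.246). CHEK1, the kinase downstream of ATR, had a value of -0.23 ± 0.11 (adjusted p = 0.324), but its other probe set gave 0.07. ATM and ATR had values of -0.10 ± 0.19 and -0.09 ± 0.12, with overlapping groups, and each of their other probe sets was also negative (-0.25 to -0.18). TP53BP1, which shields broken ends from resection, had a value of -0.04 ± 0.11. The shared sign rested on single arrays, since without untreated array 2 ATM was at 0.19 and ATR at 0.04, which leaves 3 negative values of 5, and without TGF-beta array 2 TP53BP1 was at 0.03.

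The damage-inducible GADD45 genes and the p53 regulators showed little difference, with log2 fold changes of -0.11 to 0.11. GADD45B, a stress protein that is a TGF-beta target in several cell types, had intensities of 1751 and 1578 in TGF-beta cells, against 1535 and 1551 in untreated cells. Its log2 fold change was 0.11, with a 95% interval of -0.15 to 0.36, and its 4 probe sets lay between -0.08 and 0.12. GADD45A had intensities of 768 and 728 in TGF-beta cells, against 732 and 889 in untreated cells, so the groups overlapped. MDM2, the ubiquitin ligase of p53, was dim at 35.5 and 32.5 in TGF-beta cells, against 33.1 and 38.4 in untreated cells. MDM4, its partner, was at 21.1 and 21.0 in TGF-beta cells, against 23.7 and 21.7 in untreated cells. All values of MDM2 and MDM4 were below the array medians, where a gene has little room to fall and a change can be understated. RAD52, RAD54L, ERCC2, LIG4, XRCC1, LIG3, PMS2, FANCC and FANCE complete the 11 members below the median brightness of all genes, a mean log2 intensity of 6.20.

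Base excision and single-strand break repair held both the lowest and the highest value of all members. OGG1, the glycosylase that removes oxidised guanine, had intensities of 203 and 204 in TGF-beta cells, against 141 and 152 in untreated cells. This was a ratio of 1.39, a log2 fold change of 0.48 ± 0.11 and an adjusted p of 0.0736, the smallest of the 50. Its other probe set, of similar brightness, gave -0.14 ± 0.15, so the probe sets of OGG1 disagree in sign. XRCC1, the scaffold of single-strand break repair, had intensities of 93.8 and 72.5 in TGF-beta cells, against 61.2 and 63.6 in untreated cells. The log2 fold change of XRCC1 was 0.40 ± 0.14 (adjusted p = 0.201), and the TGF-beta arrays differed more from each other than the untreated ones did.

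PARP2, which senses strand breaks and marks them with poly(ADP-ribose), had intensities of 1653 and 1596 in TGF-beta cells, against 2128 and 2122 in untreated cells. The ratio was 0.764, the log2 fold change -0.39 ± 0.10 and the adjusted p 0.109. All 3 probe sets of PARP2 were bright and gave values of -0.39 to -0.30, each at an unadjusted p under 0.05. With an intensity trend and a robust prior in limma PARP2 passed the threshold, at an adjusted p of 0.0277. PARP1, the main enzyme of this family, had a value of 0.08 ± 0.12, with overlapping groups. MPG (a glycosylase of alkylated bases), APEX1 (the abasic site endonuclease) and LIG3 (the ligase that partners XRCC1) lay between -0.15 and 0.15.

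RecQ helicases unwind branched DNA structures. The 3 among the members, BLM, WRN and RECQL, had 3 negative values, with no overlap between groups, and 0 calls in limma. Separation towards lower values occurred in 25.9% of all genes, and in 31.1% of those at or above the median brightness, where these 3 lie. At an unadjusted p under 0.05 1 of the 3 was lower, against 8.60% of all genes on the lower side. RECQL had intensities of 706 and 709 in TGF-beta cells, against 880 and 960.3 in untreated cells. The ratio was 0.770, the log2 fold change -0.38 ± 0.11 and the adjusted p 0.124. The other 3 probe sets of RECQL gave lower values still, -0.50 ± 0.10, -0.53 ± 0.11 and -0.61 ± 0.13. All 4 were at an unadjusted p under 0.05 and none was called in a fit over all probe sets, where the adjusted p were 0.0712 to 0.136. Probe sets of a gene read the same RNA on the same arrays, so they check the probes and are not further replicates. WRN had a value of -0.23 ± 0.11 (adjusted p = 0.316) and BLM, which dissolves recombination intermediates, -0.10 ± 0.10. Outside the members, the RecQ helicase RECQL4 lay in the opposite direction, at 0.50 ± 0.14 (adjusted p = 0.112 in limma). RECQL5, of the same family, was at -0.04 ± 0.10.

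**Figure D3:**
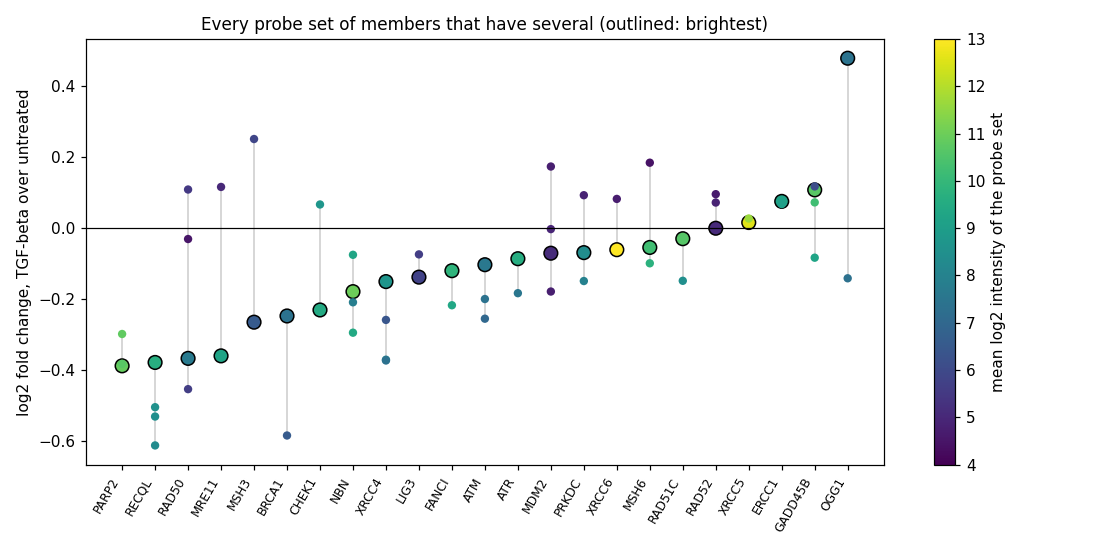
Log2 fold change (TGF-beta over untreated) of every probe set of the 23 members that have several, coloured by mean log2 intensity, with the brightest outlined. RECQL, PARP2, XRCC4 and NBN have all their points below 0, while OGG1, MSH3 and MRE11 have points on both sides.

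The 250 bases before the gene start are shown for RECQL and PARP2, the members with several probe sets that were all at an unadjusted p under 0.05, and they were chosen after their values were seen. Sequences are from RefSeq, build GRCh38.p14, printed 5′ to 3′ on the strand of the gene, for RECQL chr12:21501636-21501885 (minus) and PARP2 chr14:20343385-20343634 (plus). Capitals mark CCAAT (the NF-Y box) and GGGCGG (the GC box) on either strand.
RECQL: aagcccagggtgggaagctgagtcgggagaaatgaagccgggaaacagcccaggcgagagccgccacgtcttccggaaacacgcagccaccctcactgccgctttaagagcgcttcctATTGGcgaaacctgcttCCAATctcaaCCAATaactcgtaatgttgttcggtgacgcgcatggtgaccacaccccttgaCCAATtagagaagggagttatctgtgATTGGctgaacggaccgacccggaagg
PARP2: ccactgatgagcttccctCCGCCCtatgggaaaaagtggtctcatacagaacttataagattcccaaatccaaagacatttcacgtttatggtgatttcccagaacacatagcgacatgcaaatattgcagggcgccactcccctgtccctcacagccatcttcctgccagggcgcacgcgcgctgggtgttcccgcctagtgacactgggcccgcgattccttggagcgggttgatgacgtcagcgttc

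The RECQL window held 5 CCAAT boxes and no GC box, and the PARP2 window held 1 GC box and no CCAAT box. The start of GOLT1B, on the opposite strand, lies in the RECQL window, and GOLT1B had a log2 fold change of -0.25 ± 0.11 (adjusted p = 0.278). A window was available for 44 of the 50 measured members and 9711 of the measured genes. CCAAT occurred in 47.7% of these members, against 35.8% of measured genes and 32.0% of all 35116 promoters. GGGCGG occurred in 70.5% of members, against 60.4% of measured genes and 42.6% of all promoters. An E2F-type motif, any of TTTCCCGC, TTTGGCGC, TTTCGCGC and TTTGCCGC, occurred in 5 of the 44 members, or 11.4%, against 4.11% of measured genes and 2.79% of all promoters. The SMAD-type motif CAGACA occurred in 3 members, or 6.82%, against 10.7% of measured genes and 13.6% of all promoters, and a p53 half-site in 1, or 2.27%, against 4.84% and 5.57%. All motifs were searched on both strands, GGGCGG matches can overlap E2F-type ones, and a match of letters is a description and not a binding site.

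Homologous recombination, which copies the sequence from an intact chromatid, had 5 negative and 2 positive values among 7 measured genes and 0 calls (0 at an unadjusted p under 0.05 in limma). BRCA1 had intensities of 150.4 and 156 in TGF-beta cells, against 207 and 161 in untreated cells. The untreated arrays of BRCA1 differed by more than the gap between the group means, and its log2 fold change was -0.25 ± 0.14 (adjusted p = 0.414). A dimmer probe set of BRCA1 gave -0.58 ± 0.11, with an adjusted p of 0.0637 in the fit over all probe sets. BARD1, the partner that forms a ubiquitin ligase with BRCA1, had a value of -0.14 ± 0.10. RAD51AP1, RAD51C and RAD52, which help the strand-exchange recombinase, had values of -0.12, -0.03 and -0.0005, with overlapping groups.

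XRCC2, a paralogue of that recombinase, showed how far a single array can carry a value. Its intensities were 99.9 and 103 in TGF-beta cells, against 58.6 and 97.1 in untreated cells, so only untreated array 1 was clearly lower. The log2 fold change was 0.43 ± 0.22 (adjusted p = 0.355). It was 0.79 without untreated array 2, with an adjusted p of 0.0160, the 1 call among the members when single arrays were left out. RAD54L, a motor protein of strand exchange, had a value of 0.22 ± 0.11 with no overlap (adjusted p = 0.334).

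Non-homologous end joining, which ligates broken ends directly, had the smallest median absolute log2 fold change of the 10 roles, 0.07, with values of -0.16 to 0.02 for its 5 genes and 0 calls (0 at an unadjusted p under 0.05 in limma). XRCC5 and XRCC6, the Ku subunits that cap broken ends, had mean log2 intensities of 12.58 and 13.16 in TGF-beta cells, and 12.56 and 13.22 in untreated cells. PRKDC, the kinase that Ku recruits, had a value of -0.07 ± 0.20, and its log2 intensities were 8.28 and 8.39 in TGF-beta cells, against 8.08 and 8.73 in untreated cells. XRCC4 had a value of -0.15 ± 0.11 and its ligase partner LIG4 -0.16 ± 0.12. The other 3 probe sets of XRCC4 gave -0.37, -0.37 and -0.26.

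Nucleotide excision repair had 5 positive and 3 negative values among 8 genes (3 positive without untreated array 1) and 0 calls in limma (1 at an unadjusted p under 0.05). DDB2, the subunit that binds ultraviolet damage and is a known p53 target, had intensities of 104 and 90.0 in TGF-beta cells, against 136 and 117 in untreated cells. The groups did not overlap, and the log2 fold change was -0.38 ± 0.13 (adjusted p = 0.187). DDB1, the partner of DDB2 in the same complex, had a value of 0.02 ± 0.11. XPC, the sensor of helix distortion, had a value of 0.11 ± 0.13, and XPA, which verifies the lesion, -0.22 ± 0.12. The helicases ERCC3 and ERCC2 of the repair factor TFIIH had values of 0.21 ± 0.12 and -0.30 ± 0.14, and the nucleases ERCC5 and ERCC1 0.13 ± 0.12 and 0.08 ± 0.10.

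Mismatch repair and the Fanconi anaemia genes also had 0 calls among 8 measured members, with 1 of the 8 at an unadjusted p under 0.05 in limma. FANCG, a subunit of the Fanconi core complex, had intensities of 321 and 324 in TGF-beta cells, against 290.0 and 218 in untreated cells. Its log2 fold change was 0.36 ± 0.15 (adjusted p = 0.261), and the spread between its untreated arrays was wider than the gap to the nearer of them. FANCC, FANCE and FANCI had values of -0.24 ± 0.14, -0.08 ± 0.11 and -0.12 ± 0.10. MSH6 and MSH3, which recognise mispairs, had values of -0.05 ± 0.10 and -0.26 ± 0.13, and a second probe set of MSH3 gave 0.25. PMS1 had a value of -0.27 ± 0.13 and PMS2, the endonuclease subunit of mismatch repair, 0.25 ± 0.14, from dim intensities.

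**Figure D4:**
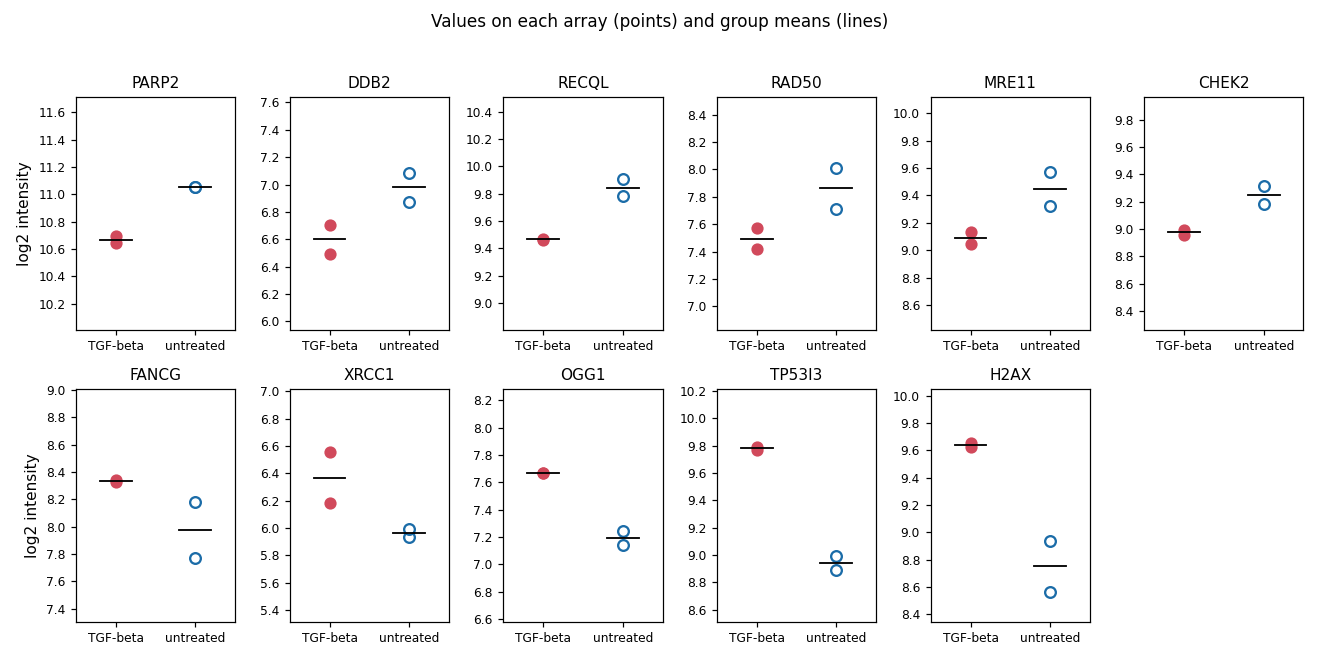
Log2 intensity on each array for the 9 members at an unadjusted p under 0.05 and for TP53I3 and H2AX, the other pathway genes that were called. Filled points are TGF-beta arrays, open points untreated arrays and lines group means, and each panel spans 1.7 log2 units. In all 11 panels the groups do not overlap, which picking genes by a small p favours. Of all genes 49.1% also separate.

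Beyond these members, 127 other genes of the same pathways were measured, and 2 rose and 0 fell after TGF-beta, against 1.22% of all genes. With an unadjusted p under 0.05 as the limit, 13 were higher and 16 lower, or 22.8% in all. Of all genes 18.0% passed that limit (9.35% higher and 8.60% lower). Of genes at or above the median brightness, where all but 29 of the 127 lie, 28.3% did. H2AX, the histone variant that is phosphorylated around breaks, had intensities of 807 and 788 in TGF-beta cells, against 491 and 379 in untreated cells. It rose 1.85-fold, a log2 fold change of 0.89 ± 0.14, with an adjusted p of 0.0403. Its 3 dimmer probe sets gave 0.41, 0.09 and 0.04, and with the mean of all its probe sets the value was 0.36 (adjusted p = 0.110). The call of H2AX was also lost under quantile normalization (adjusted p = 0.0530) and among genes at or above the median brightness (adjusted p = 0.0512). TP53I3, an oxidoreductase and known p53 target, had intensities of 873 and 884 in TGF-beta cells, against 511 and 475 in untreated cells. It rose 1.78-fold, by 0.83 ± 0.11 on the log2 scale, with an adjusted p of 0.0256. Without TGF-beta array 1 the log2 fold changes were 0.87 for H2AX and 0.84 for TP53I3 (adjusted p = 0.300 and 0.255), and without TGF-beta array 2 they were 0.90 and 0.83 (adjusted p = 0.225 and 0.197). With 1 TGF-beta array limma called 0 of all genes, so the loss of these calls is not particular to them.

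The windows of the called genes are given for comparison with those of RECQL and PARP2, from the same RefSeq build and with the same capitals, for H2AX chr11:119095466-119095715 (minus) and TP53I3 chr2:24084835-24085084 (minus).
H2AX: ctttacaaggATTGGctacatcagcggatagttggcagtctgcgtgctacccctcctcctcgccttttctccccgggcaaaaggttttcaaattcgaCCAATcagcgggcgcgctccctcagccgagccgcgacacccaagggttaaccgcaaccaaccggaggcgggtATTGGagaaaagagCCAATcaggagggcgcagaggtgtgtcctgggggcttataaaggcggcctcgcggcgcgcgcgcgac
TP53I3: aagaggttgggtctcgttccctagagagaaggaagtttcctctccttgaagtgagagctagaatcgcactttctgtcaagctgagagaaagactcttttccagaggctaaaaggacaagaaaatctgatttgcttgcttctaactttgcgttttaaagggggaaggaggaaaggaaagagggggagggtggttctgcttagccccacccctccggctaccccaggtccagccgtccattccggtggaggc

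The H2AX window held 4 CCAAT boxes and no GC box. The TP53I3 window held neither, and it held no E2F-type, CAGACA or p53 half-site match.

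Among the 23 measured p53 targets listed outside the members, 17 had positive values, or 73.9%, against 48.6% of all genes. The p53 target DDB2, counted with the members and not in this list, was at -0.38 ± 0.13. At an unadjusted p under 0.05 in limma 5 of the 23 were higher and 3 lower, or 34.8%, against 18.0% of all genes. The share was 28.3% for genes at or above the median brightness, where all but 7 of the 23 lie. TP53I3 was the 1 call, against 1.22% of all genes called, and the median of the list was 0.18. PMAIP1 and CCNG1, targets that act in apoptosis and the cell cycle, lay in the opposite direction at -0.77 ± 0.17 (adjusted p = 0.0722) and -0.53 ± 0.12 (adjusted p = 0.0762). Other damage checkpoint genes had a median of 0.18 over 19 genes, with CDC25B, a phosphatase that activates cyclin-dependent kinases, at 0.68 ± 0.13 (adjusted p = 0.0558). The phosphatase CDC25C was at -0.40 ± 0.10 (adjusted p = 0.100).

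The remaining lists, those of the repair pathways, held no call from the brightest probe set of a gene. CUL4B, a scaffold of the ubiquitin ligase that carries DDB1 and DDB2, was at -0.33 ± 0.11 (adjusted p = 0.193). All 4 of its probe sets were lower at an unadjusted p under 0.05 in limma, from -0.71 to -0.33. A dimmer one was called in the fit over all probe sets (-0.71 ± 0.11, adjusted p = 0.0464). The probe sets of its paralogue CUL4A gave -0.09 and 0.12. Of 19 further genes of nucleotide excision repair 14 were negative, or 73.7%, against 51.4% of all genes, with a median of -0.10. RPA3 (a subunit of the single-strand binding protein) was at -0.41 ± 0.11 and ERCC8 at -0.51 ± 0.17. The other subunits of that protein, RPA1 and RPA2, were at 0.01 and -0.10. Translesion synthesis and damage tolerance had 7 negative values of 10 (70.0%) and a median of -0.17. The helicase-like HLTF was at -0.43 ± 0.11 and the polymerase POLI at -0.50 ± 0.14. Other homologous recombination genes had 13 negative values of 20 (65.0%) and a median of -0.05, with the RecQ helicase RECQL4 at 0.50 ± 0.14. In other end joining, DCLRE1C, the nuclease Artemis, had the smallest p of 9 genes, at 0.29 ± 0.15. The further base excision genes split 9 positive to 8 negative, and SMUG1 (a uracil glycosylase) was at 0.44 ± 0.11. FANCL, the ligase of the Fanconi pathway, was at -0.37 ± 0.11, and MSH5 at -0.25 ± 0.16.

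**Figure D5:**
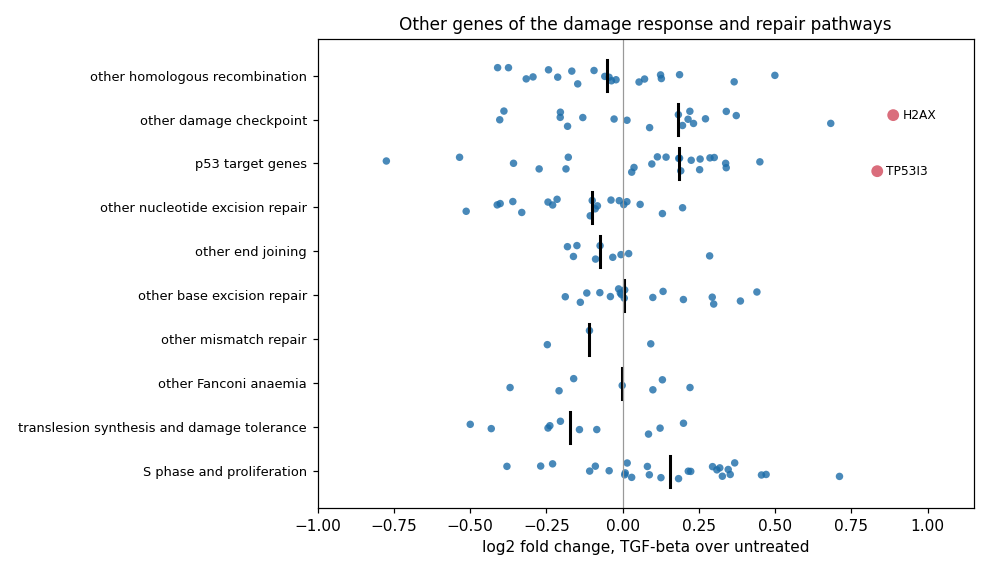
Log2 fold change (TGF-beta over untreated) of each measured gene in the other damage response and repair lists and in the S phase list, 1 point per gene, with the list median as a bar. The larger labelled points are H2AX and TP53I3, the 2 genes called among the 127 other pathway genes.

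Proliferation genes were read beside the repair genes, since many repair genes are cell cycle regulated. Of 26 S phase and proliferation genes 20 had positive values, or 76.9%, against 48.6% of all genes, and the median was 0.15. None was called by limma (0 higher and 0 lower), and at an unadjusted p under 0.05 8 were higher and 2 lower, or 38.5%, against 18.0% of all genes. Among genes at or above the median brightness, where all but 1 of the 26 lie, 28.3% passed, so brightness may account for part of this excess. The smallest p were those of PLK1, GINS1 and E2F1. PLK1, a mitotic kinase, was at 0.71 ± 0.14 (adjusted p = 0.0555 in limma). GINS1, a subunit of the replicative helicase, was at 0.46 ± 0.13, and the transcription factor E2F1 at 0.47 ± 0.15. The median of the repair members thus had the opposite sign to that of the proliferation genes, and this difference was not tested. In bulk RNA a change in the share of cells in a phase and a change in transcript per cell cannot be told apart.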

How the data were processed

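Huh-7 RNA was hybridised to Affymetrix human expression arrays, 2 of TGF-beta cells and 2 of untreated cells. The authors deposited 1 linear intensity per probe set and array. The affy package is named in the submitters' processing notes, and its settings are not stated there. Array quartiles were nearly equal, so no further scaling was applied, and log2 was taken without an offset. Of 22215 probe sets, 19724 name 1 gene in the platform annotation, and 19707 of these received a current RefSeq symbol. The brightest probe set stands for each of 12165 genes.

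The groups were compared with limma (version 3.58.1, R 4.3.3), lmFit and eBayes over all genes, with Benjamini-Hochberg adjustment and a threshold of 0.05. Moderation gave 7.41 degrees of freedom per gene. Probe sets were also fitted together in a separate fit. The procedure was tested on simulated data. Plots used matplotlib 3.10.9. The number of arrays limits the precision.

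The members and lists were chosen with earlier results of these data known. Every member may be named, with array values for those at an unadjusted p under 0.05 and for the GADD45 and MDM genes. Array values of BRCA1, PRKDC and XRCC2 were added after values were seen. Of the other lists, called genes and the smallest p were named, and further ones after values were seen. Alternatives covered normalization, offset, dim genes, choice of probe set, variance model, pairing and each array left out.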

Additional observations from a re-analysis of the deposited data

How the results depend on the processing

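Of the members, 0 were called under quantile normalization, median centring, an offset of 16, only genes at or above the median brightness, the mean of all probe sets, probe sets without an x or s suffix and a fit over all probe sets (the last added after seeing the data). With an intensity trend and robust prior 1 was called (PARP2), and leaving out single arrays gave 0 to 1. Arrays of both groups are numbered 1 and 2 in the labels. Deviations of same-numbered arrays from their group means were nearly uncorrelated over all genes (correlation 0.01). With 2 arrays per group this cannot settle whether the numbers pair them. With the replicate number as a block 4 of the 50 members were called, OGG1, XRCC1 and XRCC2 higher and PARP2 lower. So were 1229 of all 12165 genes and 16 of the 127 other pathway genes. The 1 member called with the trend stands beside 632 of all 12165 genes. In both fits the share of members called was below that of all genes. The count over all genes was 63 under quantile normalization, 92 for genes at or above the median brightness, where fewer genes were tested, 632 with the trend and 0 to 523 with single arrays left out. Other pathway genes called were 1 under quantile normalization, 1 for genes at or above the median brightness, 1 with the mean of all probe sets, 11 with the trend and 0 to 4 with single arrays left out. Members at an unadjusted p under 0.05 numbered 5 to 11 with single arrays left out. The median of the members was -0.078 under quantile normalization and -0.111 to -0.068 with single arrays left out. Between 28 (without untreated array 2) and 37 members of 50 had negative values when single arrays were left out. MRE11 turned to 0.12 when probe sets with an x or s suffix were avoided, which selects its dim probe set. In all, 16 members changed sign in at least 1 alternative, and apart from MRE11 each of these had an unadjusted p above 0.05 on both sides. Apart from the choice of probe set, the trend, the block and the fewer genes or arrays, the cause of these differences was not tested. Dim genes, near the array background, have little room to fall.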
